A study of Mus musculus with 4 samples.

Results

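The cells described here are Ly6c2 Vcan Hp monocytes, which accounted for 777 of the 23011 leukocytes from subcutaneous KPC tumours that passed the quality filter. The cells were chosen by raw counts of unique molecular identifiers (UMIs, one per captured RNA molecule). A monocyte had at least 1 UMI of Lyz2 and at least 1 UMI of 3 or more of the 4 genes Ly6c2, Vcan, Hp and Ifitm6. It had fewer than 5 UMIs of Cxcl9 and Cxcl10 together, fewer than 2 of Nos2 and Inhba together and fewer than 5 of C1qa, C1qb and C1qc together. It had no UMI of Cxcr2, Retnlg, Cd3e, Cd3d, Cd3g or Cd79a. These 18 genes were left out of the counts of genes past 2-fold between libraries, of the gene lists and of the genes named by size, since their levels chose the cells. The ranking of variable genes kept them.

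The tumours grew in male C57BL/6NHsd mice from KPC cells, a pancreatic cancer line derived from a genetically engineered mouse model with Pdx1-Cre. Mice were untreated, received a STING agonist (the cyclic dinucleotide ADU-S100, injected into the tumour), an LTbR agonist (the antibody 4H8 against the lymphotoxin β receptor, injected intraperitoneally), or both agonists in combination. Per the paper, the STING agonist was given at the start only and the antibody repeatedly over the following days. Tumours were taken after the last antibody dose, so the time since the last dose differed between the agonists. According to the methods, pooled tumours from each group were dissociated and live CD45+ cells were sorted from the pool, which leaves 1 library per group and no replicate. Differences between libraries could therefore not be tested, and every interval below is for counting error only, at 95% for a share or level. For a level it treats each UMI as independent and does not cover the spread between cells. It is therefore too narrow for genes whose UMIs lie in few cells. Bounds of a ratio set the ends of both intervals against each other and are wider.

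Classical monocytes leave the bone marrow through the chemokine receptor CCR2, carry the surface protein Ly6C and enter inflamed tissue and tumours, where they can mature into macrophages or dendritic cells. Some turn, under the transcription factor Nr4a1, into non-classical monocytes that patrol the vessel wall. STING is a sensor of cyclic dinucleotides that induces interferons, and the lymphotoxin β receptor activates NF-κB in stromal and myeloid cells. In tumours, monocytes are known both as a source of suppressive macrophages and as responders to interferon.

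Values for the 4 libraries are always given in the order untreated, STING agonist, LTbR agonist and combination. The libraries held 235, 96, 311 and 135 monocytes, with 2175343, 1057809, 2705720 and 1212784 UMIs in sum. Per monocyte the median was 8767, 10300.5, 8524 and 8384 UMIs and 2676, 3014.5, 2674 and 2705 genes, and the STING agonist library was the smallest in monocytes and the deepest per cell. No monocyte barcode occurred among the monocytes of another library. Ly6g of the neutrophil list and Xcr1 of the dendritic cell list had 0 UMIs in the monocytes of all 4 libraries, but other members were present. The neutrophil gene Csf3r was detected in 48.1%, 52.1%, 41.8% and 35.6% of monocytes. Il1r2 of the same list was detected in 35.3%, 30.2%, 34.1% and 38.5%. Of 7 NK cell genes, 1 was at 0 in the untreated monocytes and none in the others, with a summed level of 30.3, 199, 48.8 and 84.9 CPM (UMIs per 1000000 UMIs of the monocytes). In the STING agonist library 125 of the 211 UMIs were Gzma, and 99.2% of these came from 1 cell. Of 8 T cell genes 0, 2, 0 and 2 were at 0, and their summed level was 11.3 to 18.1 CPM. The 5 lists for mast cells and basophils, tumour epithelium, fibroblasts, erythrocytes and platelets each summed to at most 4.14 CPM per library. The 9 neutrophil genes summed to 408, 392, 337 and 266 CPM, with Il1r2 the highest of them. The 7 macrophage genes summed to 1125, 871, 595 and 580 CPM, mostly Apoe, and the 4 endothelial genes to 43.2, 23.6, 27.7 and 11.5 CPM, nearly all Pecam1. The lists for B cells (at most 105 CPM, mostly Ighm), conventional dendritic cells (33.0 to 74.0 CPM) and plasmacytoid dendritic cells (386 to 485 CPM, mostly the interferon-induced Bst2) moved between these bounds, and the part of other cell types in the differences below was not tested.

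The marker genes, used to choose the cells, are given as a description. Ly6c2, which encodes the monocyte surface protein Ly6C2 (chr15:75108158-75111970 on GRCm38, protein-coding), was at 1597, 1547, 1581 and 2805 CPM. Its level was alike in 3 libraries and higher in the combination. Vcan, which encodes the matrix proteoglycan versican (chr13:89655312-89742509), was at 209, 349, 237 and 109 CPM, highest with the STING agonist and lowest in the combination. Hp, which encodes the haemoglobin-binding protein haptoglobin (chr8:109575128-109579172), was at 509.8, 623, 517 and 434 CPM, and Ifitm6, of a family of interferon-induced membrane proteins (chr7:141015699-141017924), at 457, 477, 577 and 610.2 CPM. Lyz2, which encodes lysozyme (chr10:117277331-117282321), lay between 11377 and 13452 CPM. At least 1 UMI of Ly6c2 was found in 97.0%, 96.9%, 96.5% and 100% of monocytes, but also in 49.3%, 48.6%, 41.2% and 43.2% of T cells (at least 2 UMIs of the Cd3 genes and at most 1 of Lyz2), so Ly6c2 alone did not mark the cells. Hp was found in 95.3%, 94.8%, 93.6% and 94.1% of monocytes and in 0.802%, 0.431%, 0.749% and 0.271% of T cells, whose median depth was 5488, 5612, 4729.5 and 5457 UMIs. Among genes outside the rule, the monocyte genes Ccr2 (923, 694, 822 and 566 CPM), Csf1r (643, 571, 597 and 653 CPM), Plac8 (3580.1, 3257, 3239 and 3689.9 CPM) and F13a1 (704, 933, 768 and 656 CPM) were present in all 4 libraries. Cells chosen by monocyte markers can carry such genes for that reason, so their presence is a description too. The alarmins S100a8 and S100a9, abundant in neutrophils and in freshly released monocytes, were low, at 23.0, 3.78, 29.6 and 9.89 CPM and 54.7, 15.1, 14.8 and 0.825 CPM.

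At the edge of the gate, 108, 53, 135 and 42 monocytes had all 4 marker genes and 127, 43, 176 and 93 had exactly 3. A further 170, 66, 203 and 92 cells had exactly 2 and otherwise met the rule. Of the monocytes, 12, 7, 17 and 7 held 3 or 4 UMIs of Cxcl9 and Cxcl10, while 8, 4, 11 and 6 cells were left out with 5 or 6 and 156, 78, 130 and 97 with more than 6. For C1q, 6, 0, 3 and 2 monocytes held 3 or 4 UMIs and 4, 1, 0 and 0 cells were left out with 5 or 6.

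Of the filtered leukocytes, 3.46% (3.04 to 3.93), 2.56% (2.08 to 3.12), 4.35% (3.89 to 4.85) and 2.53% (2.13 to 2.99) were monocytes. The LTbR agonist library had the highest share and the combination and STING agonist libraries the lowest. The ratio to untreated was 0.739 (0.529 to 1.03) for the STING agonist, 1.26 (0.990 to 1.59) for the LTbR agonist and 0.731 (0.541 to 0.983) for the combination. The combination had 0.582 (0.438 to 0.768) times the share of the LTbR agonist library and 0.988 (0.682 to 1.44) times that of the STING agonist library. When every cell was thinned to 1000 UMIs, 54, 26, 87 and 46 cells still met the rule, and the ratio of the combination to untreated turned to 1.09 (0.614 to 1.93). Requiring all 4 marker genes gave 0.495 for the same ratio, so that its size, and under thinning its direction, changed with the setting.

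The limits on other genes removed unlike parts of the marker-positive cells, those with Lyz2 and at least 3 of the 4 marker genes. They amounted to 12.7%, 9.93%, 11.7% and 6.77% of all filtered leukocytes, and the combination had 0.532 (0.451 to 0.626) times the untreated share. Of them, 27.2%, 25.8%, 37.2% and 37.4% were kept as monocytes. The chemokines Cxcl9 and Cxcl10, which draw T cells and are induced by interferon-γ, reached the limit in 43.2%, 50.3%, 38.6% and 50.1%. Nos2 (inducible nitric oxide synthase) and Inhba (activin A) reached it in 39.3%, 37.6%, 31.3% and 22.2%, and the complement C1q genes of mature macrophages in 23.9%, 20.4%, 14.2% and 7.48%. The C1q share of the combination was 0.313 (0.186 to 0.508) times that of untreated tumours, and its Nos2 and Inhba share 0.564 (0.422 to 0.744) times. Without the 3 limits the ratio of the LTbR agonist to untreated was 0.885 (0.770 to 1.02) in place of 1.26.

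**Figure D1:**
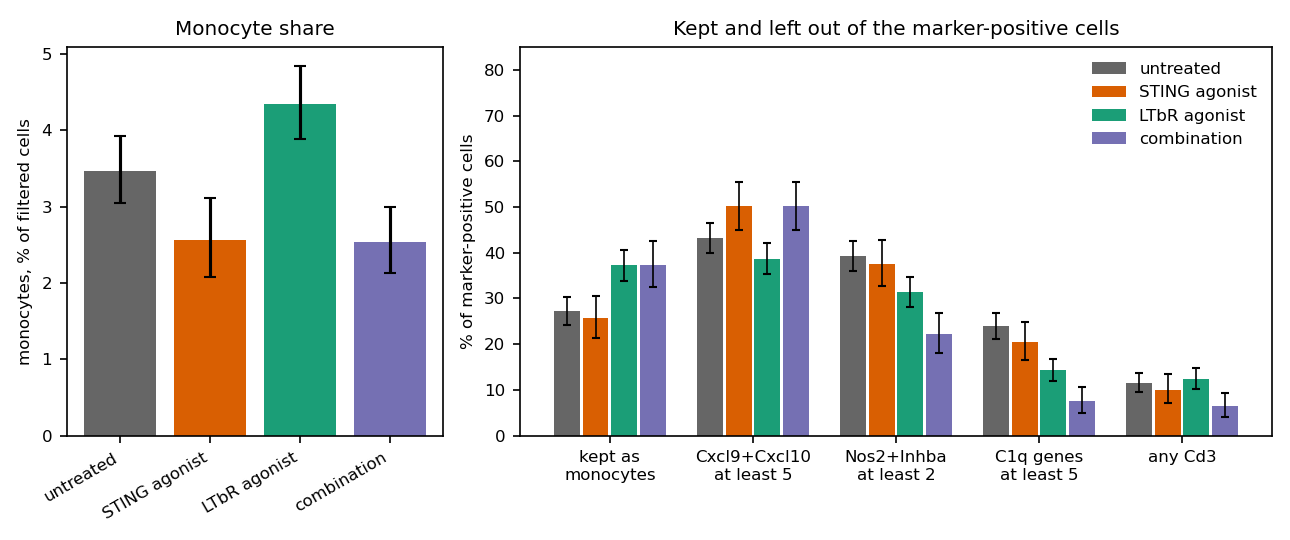
Left, bars show monocytes as a percentage of filtered cells in the 4 libraries, 1 per group, with exact 95% intervals for counting error; the share was highest with the LTbR agonist (4.35%). Right, bars show the percentage of marker-positive cells (Lyz2 and at least 3 of 4 marker genes) that were kept as monocytes or that reached each limit, where a cell can reach several; C1q-positive cells made up 23.9% in untreated tumours and 7.48% in the combination.

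Monocyte expression was compared as log2 ratios of CPM plus a pseudocount of 10 CPM, over genes with at least 50 UMIs in 1 of the 2 libraries, and a gene is called past 2-fold at a log2 ratio of at least 1 either way. Relative to untreated monocytes the STING agonist had 7 of 5109 genes higher (0.137%) and 9 lower (0.176%). The LTbR agonist had 12 of 5854 genes higher (0.205%) and 31 lower (0.53%). The combination had 42 of 5134 genes higher (0.818%) and 116 lower (2.26%). The counting interval of each of these ratios excluded 0. The minimum of 50 UMIs and the 2-fold limit nearly fix that outcome beforehand, so it lends the calls no support. The median over all measured genes was 0.02, 0.04 and 0.03 for the 3 comparisons. Counts of list members past 2-fold below are to be read beside the shares above, and list medians beside these medians. Without the limits on Cxcl9, Cxcl10, Nos2, Inhba and C1q, a choice made after the data had been seen, the combination had 41 genes higher and 64 lower and the LTbR agonist 16 higher and 15 lower. Of the 40 ratios past 2-fold among the genes named by size, 20 remained past it in that case.

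**Figure D2:**
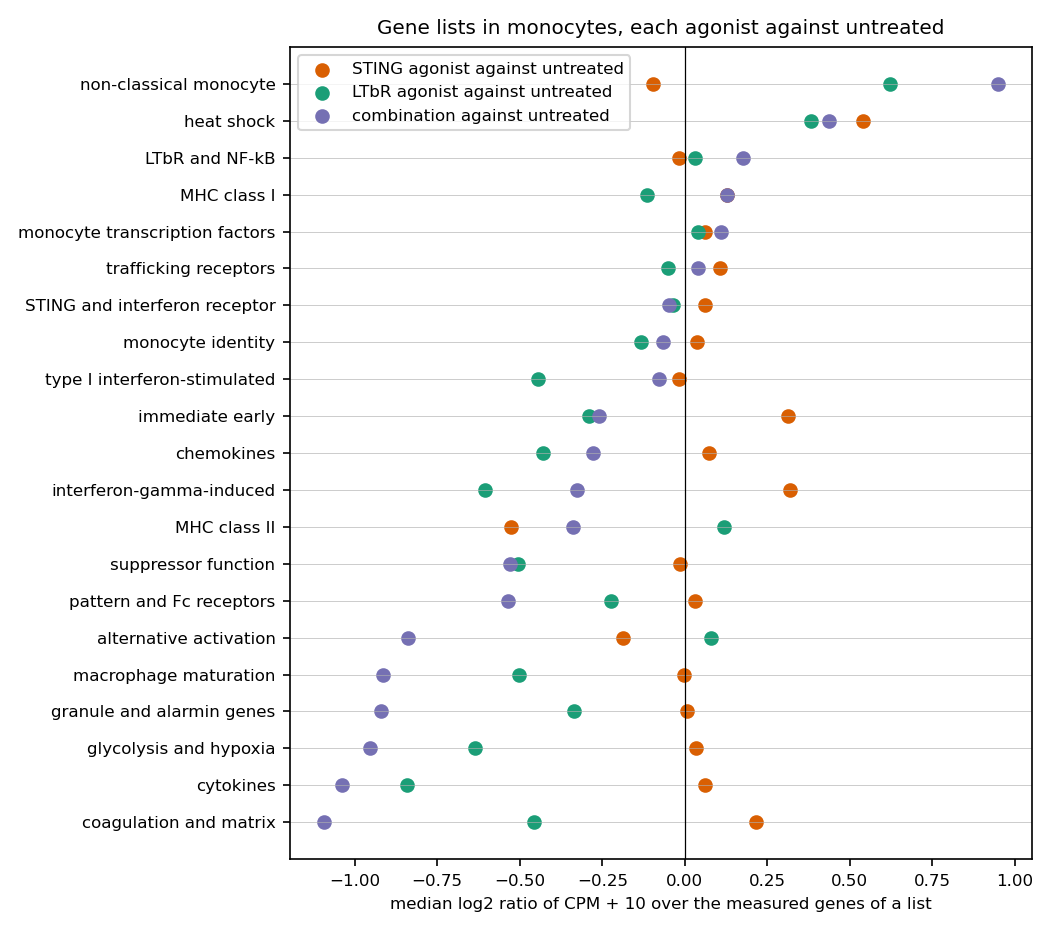
Each point is the median log2 ratio (CPM plus 10) over the measured genes of a list in monocytes, for each agonist library against the untreated one, with lists of fewer than 3 measured genes left out. In the combination the non-classical monocyte list was highest (0.95) and the coagulation and matrix list lowest (-1.09), while points of the STING agonist lay between -0.53 and 0.54.

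Genes of monocyte identity were largely alike in the 4 libraries. Of 20 measured genes, none was past 2-fold with the STING agonist or in the combination and 1 with the LTbR agonist, with medians of 0.04, -0.13 and -0.07 against 0.02, 0.04 and 0.03 over all genes. The exception was Chil3, which encodes the chitinase-like protein Ym1 and was at 250.1, 319.5, 569 and 434 CPM. Its log2 ratio was 1.16 (0.97 to 1.34) with the LTbR agonist and 0.77 (0.53 to 1.01) in the combination. Ccr2 had -0.41, -0.17 and -0.69, and Thbs1 (thrombospondin 1, a matrix glycoprotein) had 0.22, -0.89 and -0.95. Transcription factors of the lineage, 12 of which were measured, had medians of 0.06, 0.04 and 0.11, with 0 past 2-fold with either agonist alone and 1 past 2-fold lower in the combination. The lineage factors Spi1 (455, 503, 463 and 590.4 CPM) and Cebpb (2739, 2826, 2256 and 2581 CPM) had log2 ratios of 0.14, 0.02 and 0.37 and of 0.04, -0.28 and -0.09. Among the 8 measured granule and alarmin genes, 0 were above the untreated level in the combination and 4 were past 2-fold lower, S100a9, Mmp8, Prtn3 and Slpi, with a median of -0.92. With the STING agonist 2 of 8 were past 2-fold lower and 4 above the untreated level, with a median of 0.01. With the LTbR agonist 1 of 8 was past 2-fold lower and 1 above it, with a median of -0.34. S100a9, at 54.7, 15.1, 14.8 and 0.825 CPM, was below the untreated level in every agonist library. Slpi, a secreted inhibitor of leukocyte proteases, was at 307, 383, 284 and 137 CPM.

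Non-classical monocyte genes were higher in the combination. Of 10 measured, 5 were past 2-fold higher and 1 lower, with a median of 0.95. With the LTbR agonist 1 of 12 was past 2-fold higher (Eno3) and 1 lower, with a median of 0.62, and with the STING agonist 0 of 9 either way, with a median of -0.10. Ace, which encodes angiotensin-converting enzyme (chr11:105967945-105989964), was at 51.0, 44.4, 90.9 and 186 CPM. That is a log2 ratio of 1.68 (1.27 to 2.09) in the combination and 0.73 (0.33 to 1.12) with the LTbR agonist. Spn, which encodes the sialoglycoprotein CD43 of the patrolling subset, was at 32.6, 38.8, 52.9 and 105 CPM, a log2 ratio of 1.43 (0.93 to 1.92) in the combination. Both genes were near the untreated level with the STING agonist alone. Cx3cr1, the fractalkine receptor, was at 83.7, 77.5, 140.4 and 186 CPM, with 1.07 (0.70 to 1.44) in the combination. Adgre4, an adhesion receptor, was at 54.2, 51.0, 95.4 and 125 CPM, and Treml4, a receptor of the TREM family, at 11.5, 15.1, 31.4 and 47.8 CPM, with 1.07 and 1.43 in the combination. The order untreated, LTbR agonist, combination was shared by these 5 genes. Nr4a1, the factor the subset depends on, was at 464, 460.4, 521 and 833 CPM, a log2 ratio of 0.83 (0.65 to 1.01) in the combination, short of 2-fold. Past 2-fold the other way was Fcgr4, which encodes an activating receptor for IgG, at 138, 122, 45.5 and 39.6 CPM, with -1.42 (-1.78 to -1.05) with the LTbR agonist and -1.58 (-2.07 to -1.09) in the combination. Without the 3 limits on other genes the median of the list in the combination was 1.01, while among monocytes with all 4 marker genes Ace and Spn were at 0.56 and 0.53, short of 2-fold.

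The 8 genes highest in the combination included 2 of that list, Ace and Spn. Fkbp5, a co-chaperone of steroid receptors induced by glucocorticoids, was at 8.73, 22.7, 27.3 and 69.3 CPM, a log2 ratio of 2.08 (1.46 to 2.65). Klf2, a transcription factor of quiescent leukocytes and of vessels, was at 233, 386, 307 and 672 CPM, a log2 ratio of 1.49 (1.27 to 1.71), and its level was highest in the combination and second with the STING agonist. Pglyrp1, which encodes a peptidoglycan-binding protein, was at 29.4, 19.9, 103 and 109 CPM. It was high in both libraries with the LTbR agonist, with 1.52 (1.09 to 1.94) alone and 1.59 (1.09 to 2.09) combined. Traf1, an adaptor of TNF receptors, was at 31.3, 30.3, 75.4 and 109 CPM, with 1.05 (0.60 to 1.49) and 1.53 (1.03 to 2.02). The last of the 8, Lrrk2, a kinase expressed in myeloid cells, was at 18.4, 24.6, 37.3 and 62.7 CPM, a log2 ratio of 1.36 (0.76 to 1.93). Without the 3 limits on other genes Traf1 was at 0.30 with the LTbR agonist and 0.83 in the combination, and Lrrk2 at 0.83, all short of 2-fold. Among monocytes with all 4 marker genes the ratios with the LTbR agonist were 0.65 for Traf1 and 0.63 for Pglyrp1.

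Ly6i, a gene of the Ly6 cluster (chr15:74979534-74983430), stood out with 158, 112, 269 and 576 CPM. Its log2 ratio was 0.73 (0.49 to 0.98) with the LTbR agonist, 1.80 (1.55 to 2.05) in the combination and 1.07 (0.86 to 1.28) for the combination against the LTbR agonist, and without the 3 limits on other genes the second of these was 0.48, short of 2-fold. Among other genes of the cluster, named after their values were seen, Ly6c2 was also highest in the combination, with a log2 ratio of 0.81. It was at -0.01 with the LTbR agonist, and its level chose the cells. Ly6a, Ly6e and Ly6c1 did not share the pattern of Ly6i. Ly6a, which encodes the interferon-induced protein Sca-1 (chr15:74994877-74998031), was at 552, 476, 229.5 and 190.5 CPM, lower in both libraries with the LTbR agonist at -1.23 (-1.42 to -1.04) and -1.49 (-1.75 to -1.23). Ly6e (chr15:74955051-74959905) was at 2038, 2173, 2093 and 2490.1 CPM, within 0.29 of untreated. Ly6c1 (chr15:75044018-75048830), a close copy of Ly6c2, had 1, 0, 3 and 0 UMIs, and how the counting split reads between near-identical Ly6 copies was not given in the sources used here.

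Genes of glycolysis and hypoxia were lower in both libraries with the LTbR agonist. In the combination 0 of 16 measured genes were above the untreated level and 7 were past 2-fold lower, with a median of -0.95. With the LTbR agonist 1 of 16 was above it and 2 were past 2-fold lower, with a median of -0.63. With the STING agonist 10 of 16 were above it and 0 past 2-fold, with a median of 0.03. Ddit4, a stress-induced inhibitor of mTORC1 signalling, was at 162, 132, 51.7 and 28.9 CPM, with log2 ratios of -1.48 (-1.83 to -1.13) and -2.15 (-2.66 to -1.64). Vegfa, the vascular endothelial growth factor, was at 309, 256, 127 and 93.2 CPM, with -1.22 (-1.47 to -0.97) and -1.63 (-1.98 to -1.28). Hilpda, a hypoxia-induced protein of lipid droplets, was at 84.6, 89.8, 55.1 and 19.8 CPM. The glucose transporter gene Slc2a1 was at 317, 329.9, 162 and 136 CPM, and Hk2, the hexokinase that traps glucose in the cell, at 154, 133, 78.7 and 66.8 CPM. Untreated and STING agonist monocytes had similar levels of both, and both libraries with the LTbR agonist lower ones. Bnip3, a mitochondrial protein induced in hypoxia, was at 194, 186, 94.2 and 77.5 CPM and the glycolytic enzyme gene Pgk1 at 480.4, 513, 288 and 233 CPM, with -1.22 and -1.01 in the combination. Without the 3 limits on other genes the list's medians were -0.29 with the LTbR agonist and -0.60 in the combination.

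As a description, the promoters of this list were searched for the core of the hypoxia response element, the site of HIF factors. It was taken as ACGTG or GCGTG on either strand with overlapping matches counted, so that CACGTG counts as 2. RefSeq promoters (GRCm38.p6) were matched for 15 of the 17 listed genes, over the 250 bases before the start. The core was present in 10 of 15 promoters (66.7%), against 38.6% of 27025 promoters of the same length over all genes, and 2 or more matches in 8 (53.3%) against 16.8%. The list was chosen for glycolysis and hypoxia. A higher share of a hypoxia core was thus built into the choice and is no result of these data. Slc2a1, Hk2, Pgk1, Ddit4 and Bnip3, all past 2-fold lower in the combination, held 2, 2, 2, 2 and 5 matches, while Vegfa and Hilpda, past 2-fold as well, held 0 in this window. Of the 8 matched genes that were not past 2-fold or not measured, Ldha, Gapdh, Eno1, Egln3 and Adm held 5, 2, 1, 1 and 2, so that the core was present in 5 of 7 genes past 2-fold and in 5 of the 8 others. The promoters of Pgk1 (plus strand, chrX:106186850-106187099), Ddit4 (minus strand, chr10:59951771-59952020) and Bnip3 (minus strand, chr7:138909507-138909756) are shown from 5′ to 3′ as examples of the genes that were lower, with the matches in capitals. A match is a description of the letters and no evidence of binding.
Pgk1: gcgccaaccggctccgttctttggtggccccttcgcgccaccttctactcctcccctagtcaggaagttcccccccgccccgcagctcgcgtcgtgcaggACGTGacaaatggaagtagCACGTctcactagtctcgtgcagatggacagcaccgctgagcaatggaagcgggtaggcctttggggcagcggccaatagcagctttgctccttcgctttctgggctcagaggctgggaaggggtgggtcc
Ddit4: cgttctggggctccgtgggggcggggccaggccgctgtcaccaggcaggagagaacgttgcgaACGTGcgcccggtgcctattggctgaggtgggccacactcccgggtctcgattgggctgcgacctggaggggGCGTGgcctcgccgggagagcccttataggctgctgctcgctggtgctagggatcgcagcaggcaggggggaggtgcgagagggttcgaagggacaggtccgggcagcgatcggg
Bnip3: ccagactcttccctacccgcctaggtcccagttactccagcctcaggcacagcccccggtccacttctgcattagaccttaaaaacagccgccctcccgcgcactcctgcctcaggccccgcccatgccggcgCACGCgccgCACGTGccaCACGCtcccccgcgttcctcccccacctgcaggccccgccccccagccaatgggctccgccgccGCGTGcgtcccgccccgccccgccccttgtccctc

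Genes of macrophage maturation were lower in the combination as well, with 8 of 16 measured genes past 2-fold lower, 0 higher and a median of -0.91. The medians were -0.50 with the LTbR agonist, where 1 gene was past 2-fold lower, and -0.001 with the STING agonist, where it was Mrc1, at 28.5, 4.73, 52.5 and 23.9 CPM. Apoe, a lipid carrier, was at 941, 696, 378 and 411 CPM, with -1.29 (-1.44 to -1.14) with the LTbR agonist and -1.17 (-1.36 to -0.99) in the combination. Spp1, which encodes osteopontin, was at 102, 129, 76.9 and 3.30 CPM, near 0 in the combination alone, and its UMIs were concentrated, with 35.6%, 69.1%, 31.7% and 50% of them in 1 cell. Lgmn (legumain) and Ctsl (cathepsin L), lysosomal proteases, were at 415, 267, 214 and 144 CPM and at 197, 174, 106 and 75 CPM. Adgre1, which encodes the macrophage antigen F4/80, was not lower, at 71.7, 81.3, 101 and 91.5 CPM. The C1q limit removes cells with mature macrophage genes in unlike shares from the 4 libraries, as given above, and without the 3 limits the median in the combination was -0.88.

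Receptors for the Fc part of IgG were lower with the LTbR agonist and in the combination. Of the measured pattern and Fc receptors, 5 of 15 were past 2-fold lower in the combination and 2 of 16 with the LTbR agonist, with medians of -0.54 and -0.22, and 0 of 15 with the STING agonist (median 0.03). Fcgr1, the high-affinity receptor, was at 321, 355, 157 and 133 CPM, with -0.99 (-1.22 to -0.75) and -1.21 (-1.53 to -0.90). Fcgr3, an activating receptor, was at 726, 812, 398 and 303 CPM, and Fcgr2b, the inhibitory one, at 764, 709, 476 and 364 CPM. Their shared signalling chain Fcer1g was at 3077, 2919, 2913 and 2623 CPM, with -0.23 in the combination. The complement receptor gene C3ar1 was at 82.3, 72.8, 34.0 and 27.2 CPM, and Clec7a was not analysed here, whereas the lipoprotein receptor Tlr2 was at 210.1, 251, 210.3 and 245 CPM and the endotoxin co-receptor Cd14 at 1385, 1464, 1218 and 1130.5 CPM.

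Of the coagulation and matrix genes 6 of 12 were past 2-fold lower in the combination (median -1.09), 1 of 11 with the LTbR agonist (median -0.46) and 0 of 11 with the STING agonist, where 1 was higher (median 0.22). Tgm2, a crosslinking transglutaminase, was at 1619, 1568, 824 and 495 CPM, with -0.97 (-1.07 to -0.86) and -1.69 (-1.85 to -1.53). Timp1, an inhibitor of matrix metalloproteinases, was at 120.4, 99.3, 39.9 and 23.9 CPM, with -1.39 (-1.77 to -0.999) and -1.94 (-2.49 to -1.39), but without the 3 limits on other genes these were 0.06 and -0.94, so that the direction with the LTbR agonist depended on the limits. Mmp19, a metalloproteinase, was highest with the STING agonist and lowest in the combination, at 111, 234, 85.4 and 37.1 CPM, with 1.01 (0.67 to 1.36) and -1.36 (-1.87 to -0.85). The first of these was short of 2-fold under 7 of 10 alternatives, down to 0.73 without the 3 limits. The gene of clotting factor XIII, F13a1, had 0.40, 0.12 and -0.10.

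Cytokine genes had 4 of 8 past 2-fold lower in the combination (median -1.04) and 3 of 8 with the LTbR agonist (median -0.84), 0 above the untreated level in either, and 0 past 2-fold with the STING agonist (median 0.06). Il1b, the inflammasome-dependent cytokine interleukin 1β, was at 3846, 3866, 2309 and 2283 CPM, with -0.73 (-0.80 to -0.67) and -0.75 (-0.83 to -0.67). Il1a was at 50.1, 23.6, 14.0 and 4.12 CPM, and Osm, a cytokine of the interleukin 6 family, at 601, 718, 268 and 233 CPM, with -1.14 (-1.32 to -0.96) and -1.33 (-1.57 to -1.09). In the combination Il1a was short of 2-fold without the 3 limits on other genes and at a pseudocount of 50 CPM. Tgfb1, the suppressive cytokine TGF-β1, was at 1024, 983, 833 and 819.6 CPM and less unlike between libraries.

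Arg1 was the lowest of the 8 genes named by size in the combination. It encodes arginase 1, which depletes arginine and restrains T cells (chr10:24915221-24927484), and was at 456, 362, 248 and 59.4 CPM, with -0.32 (-0.56 to -0.09), -0.85 (-1.05 to -0.66) and -2.75 (-3.13 to -2.37) in the 3 comparisons. The combination also lay below the LTbR agonist alone, at -1.90 (-2.30 to -1.50). Arg1 was detected in 26.4%, 18.8%, 12.9% and 12.6% of monocytes, so that a minority of cells carried it in each library. Of 11 genes of suppressor function, 5 were past 2-fold lower in the combination, Arg1, Arg2, Ptgs2, Il4ra and Vegfa, with a median of -0.53. The medians were -0.51 with the LTbR agonist, where Vegfa was past 2-fold lower, and -0.01 with the STING agonist. Ptgs2, the cyclooxygenase 2 of prostaglandin synthesis, was at 313, 272, 177 and 115 CPM. The oxidase genes Cybb (845, 837, 846 and 1028 CPM) and Ncf1 (113, 147, 107 and 166 CPM) were above the untreated level in the combination, short of 2-fold. Of the alternative activation genes, 3 of 6 were past 2-fold lower in the combination (Arg1, Il4ra and the chemokine gene Ccl24), with a median of -0.84, which was -0.08 among monocytes with all 4 marker genes. The median was 0.08 with the LTbR agonist, where Chil3 was past 2-fold higher, and -0.19 with the STING agonist, where Mrc1 was past 2-fold lower.

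Most interferon-stimulated genes were below the untreated level with the LTbR agonist, and they were divided with the STING agonist. Of 36 measured type I interferon-stimulated genes, 2 were above the untreated level with the LTbR agonist and 4 were past 2-fold lower, with a median of -0.45. With the STING agonist 17 of 36 were above it, 0 past 2-fold, with a median of -0.02, and in the combination 13 were above it and 2 past 2-fold lower, with a median of -0.08. Isg15, a ubiquitin-like modifier, was at 839, 786, 420.2 and 539 CPM, with -0.09 (-0.26 to 0.07), -0.98 (-1.13 to -0.83) and -0.63 (-0.80 to -0.45). Ifit2, an antiviral RNA-binding protein, was at 128, 93.6, 56.5 and 66.8 CPM and Slfn4, a schlafen gene of monocytes, at 271, 156, 119.7 and 80.0 CPM. Slfn4 and Ly6a were the 2 past 2-fold lower in the combination. Mx1 was not analysed here. Ifitm1, which encodes an interferon-induced membrane protein and belongs to none of the lists, was at 919, 814, 215 and 217 CPM, with -2.04 (-2.22 to -1.87) and -2.03 (-2.27 to -1.80). Cells rich in Cxcl9 and Cxcl10 were removed by the rule, so the cells with most of these interferon-induced chemokines are not among those measured.

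Interferon-γ-induced genes had 12 of 14 above the untreated level with the STING agonist, 0 past 2-fold, with a median of 0.32. With the LTbR agonist 1 of 14 was above it and 1 was past 2-fold lower (median -0.61), and in the combination 3 were above it and 0 past 2-fold (median -0.33). Gbp2, a guanylate-binding protein, was at 382, 519.9, 144 and 203 CPM, with 0.44 (0.22 to 0.65), -1.34 (-1.58 to -1.11) and -0.88 (-1.15 to -0.61), the second of which was -0.85 without the 3 limits. The transcription factor Irf1 was at 369, 509, 278 and 376 CPM and the immunity-related GTPase Irgm1 at 120.4, 182, 86.5 and 142 CPM. All 3 were highest with the STING agonist and lowest with the LTbR agonist.

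Both classes of antigen-presenting molecules were measured. Of 8 genes of MHC class II, 1 was past 2-fold lower with the STING agonist and 7 were below the untreated level, with a median of -0.53, while the medians were 0.12 with the LTbR agonist and -0.34 in the combination with 0 past 2-fold. H2-Eb1, a β chain, was at 671, 328, 769.9 and 504 CPM, with -1.01 (-1.23 to -0.79) with the STING agonist, which was -0.12 without the 3 limits on other genes. Its partner gene H2-Aa, an α chain, was at 1128, 621, 1274 and 932 CPM and the invariant chain Cd74 at 4001, 2557, 4672 and 4101 CPM. The 10 genes of MHC class I were all within 2-fold in the 3 comparisons, with medians of 0.13, -0.12 and 0.13. Of the dendritic cell list 2 genes were measured with the STING agonist, 4 with the LTbR agonist and 2 in the combination. Cd209a, a lectin of monocyte-derived dendritic cells, was past 2-fold lower in both libraries with the LTbR agonist, at 59.3, 52.0, 11.8 and 19.0 CPM. It was detected in 7.23%, 8.33%, 3.54% and 4.44% of the cells, with 18.6% to 39.1% of its UMIs in 1 cell, and with the LTbR agonist its log2 ratio was -0.57 without the 3 limits and -0.95 with 2 marker genes sufficing, short of 2-fold.

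Ccl2 was the highest of the 8 genes named by size with the STING agonist. It encodes the ligand of CCR2 that draws monocytes (chr11:82035571-82037453) and was at 162, 443, 175 and 211 CPM, with 1.40 (1.12 to 1.67), 0.10 (-0.16 to 0.37) and 0.36 (0.04 to 0.67). With the STING agonist the ratio was 0.70 without the 3 limits on other genes and 0.83 with 2 marker genes sufficing, short of 2-fold in both cases. It was short of 2-fold as well among monocytes with all 4 marker genes. Of 9 measured chemokine genes, 1 was past 2-fold higher and 1 lower with the STING agonist, 0 and 2 with the LTbR agonist and 0 and 3 in the combination, with medians of 0.07, -0.43 and -0.28. Ccl5, a T cell attractant (chr11:83525778-83530518), was at 346, 145, 64.3 and 157 CPM, lower in all 3 libraries at -1.20 (-1.53 to -0.89), -2.26 (-2.55 to -1.97) and -1.10 (-1.39 to -0.80). A single cell held 11.0%, 57.5%, 22.4% and 52.1% of its UMIs. Cxcl2, a neutrophil attractant, was at 375, 395, 218 and 61.8 CPM and lower in the combination alone past 2-fold, at -2.42 (-2.81 to -2.04). It was detected in 23.4%, 22.9%, 20.9% and 17.0% of monocytes. Cxcl16 was at 168, 135, 77.2 and 99.8 CPM, past 2-fold lower with the LTbR agonist.

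Of 14 trafficking receptors, 0 were past 2-fold with either agonist alone, and in the combination 1 was higher (Cx3cr1) and 2 were lower, among them Ccr1, with medians of 0.11, -0.05 and 0.04. Ccr1, a receptor for inflammatory chemokines, was at 359, 493, 197 and 157 CPM. The integrin genes Itgal and Itga4 were at 193, 194, 245 and 351 CPM and at 277, 315, 352 and 469 CPM.

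Heat shock genes were above the untreated level in every comparison, for 9 of 9, 10 of 10 and 9 of 9 measured, with 1, 0 and 2 past 2-fold. Their medians were 0.54, 0.38 and 0.44, against 0.02, 0.04 and 0.03 over all genes. Hspa1b, an inducible chaperone of the HSP70 family, was at 18.4, 49.2, 34.0 and 54.4 CPM, its near copy Hspa1a at 38.2, 79.4, 51.4 and 53.6 CPM, and Dnaja1, a co-chaperone, at 148, 251, 256 and 344 CPM. Immediate early genes, which dissociation of tissue is known to induce, had 15 of 18 above the untreated level with the STING agonist, 4 with the LTbR agonist and 4 in the combination (medians 0.31, -0.29 and -0.26), and the part of dissociation in these values was not tested. Among them Klf2 was past 2-fold higher and Ier3, an early stress response gene, past 2-fold lower in the combination, the latter at 486, 504, 303 and 178 CPM.

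The sensor and receptor genes of the 2 agonists were all within 2-fold of untreated. Of the STING and interferon receptor list 0 of 10, 11 and 10 measured genes were past 2-fold, with medians of 0.06, -0.04 and -0.05. Tmem173, which encodes STING, was at 98.4, 132, 76.5 and 76.7 CPM and Ifngr1, a chain of the interferon-γ receptor, at 412, 389, 507 and 559 CPM. Of the LTbR and NF-κB list 0 of 11 were past 2-fold in each comparison, with medians of -0.02, 0.03 and 0.18. Ltbr itself was at 92.4, 111, 80.9 and 82.5 CPM, and Nfkb2, which encodes the p100 precursor of the alternative pathway, at 61.1, 75.6, 87.6 and 115 CPM, with 0.46 (0.07 to 0.84) and 0.82 (0.38 to 1.26). The inhibitor of NF-κB Tnfaip3 was at 91.9, 42.5, 69.5 and 85.8 CPM, with -0.96 (-1.49 to -0.42) with the STING agonist. Of the cell cycle list only Pcna reached 50 UMIs, at 41.4, 28.4, 59.5 and 63.5 CPM.

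**Figure D3:**
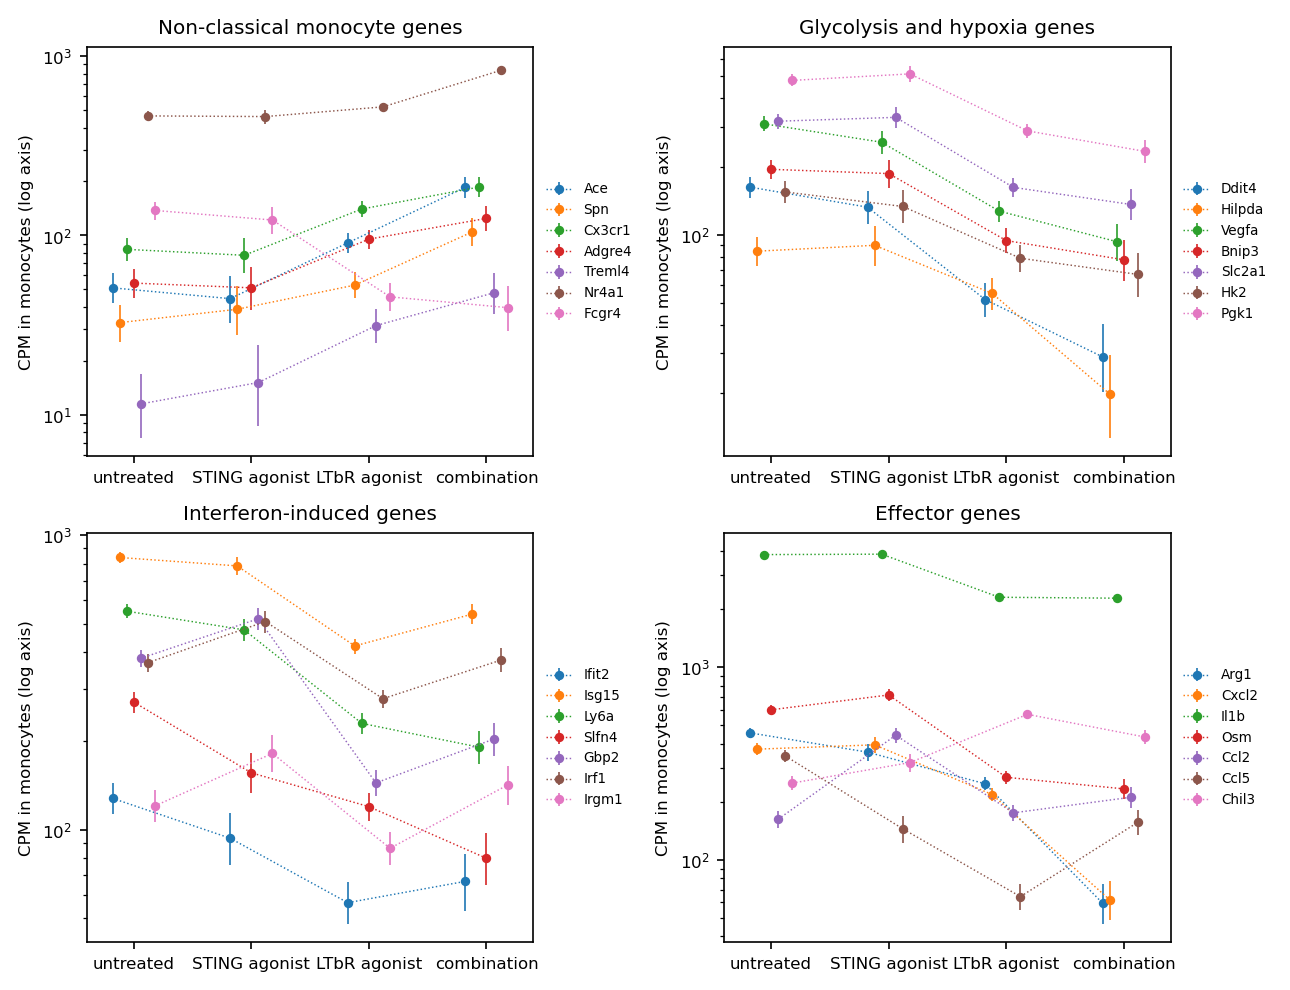
Points show CPM of named genes in the summed monocytes of each library on a log axis, with exact Poisson 95% intervals, and dotted lines only join the points of a gene. The plotted non-classical genes other than Fcgr4 were highest in the combination (Ace 186 CPM), glycolysis and hypoxia genes were lower in both libraries with the LTbR agonist, and Arg1 and Cxcl2 were lowest in the combination.

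Further genes were named by the size of their ratio alone. With the STING agonist these were, among the higher ones, Plk2 (a polo-like kinase, 23.0, 64.3, 28.5 and 23.9 CPM), Dmkn (24.4, 61.4, 34.4 and 20.6 CPM), Slc15a2 (a peptide transporter, 45.1, 98.3, 45.5 and 96.5 CPM), Kcna3 (a potassium channel, 23.9, 50.1, 14.0 and 16.5 CPM) and Ythdf2 (a reader of methylated RNA, 29.9, 59.6, 34.7 and 38.8 CPM). Among the lower ones were Cdh1, which encodes E-cadherin, at 43.2, 11.3, 20.3 and 11.5 CPM, a log2 ratio of -1.32 (-1.99 to -0.59), Maml2, a Notch co-activator, at 76.3, 33.1, 43.2 and 36.3 CPM, and Tex14, Itprip and Stn1, with -0.98, -0.94 and -0.92. Cdh1 was lower than untreated in all 3 agonist libraries. Without the 3 limits on other genes Plk2, Dmkn, Cdh1 and Maml2 were at log2 ratios of 0.57, 0.47, -0.32 and -0.44 with the STING agonist, and these 4 genes were short of 2-fold as well with 2 or with all 4 marker genes and at a pseudocount of 50 CPM. With the LTbR agonist, Celf4, an RNA-binding protein, was highest at 3.68, 0.945, 36.6 and 14.8 CPM, a log2 ratio of 1.77 (1.20 to 2.23), followed by Pglyrp1, Nos1ap (11.5, 8.51, 39.9 and 35.5 CPM), Chil3, Cbfa2t3, a transcriptional co-repressor (33.6, 38.8, 81.7 and 97.3 CPM), Traf1, Frmd4b (1.03) and Herpud1, a protein of the endoplasmic reticulum stress response (1.00). The lower ones included Abca1, a cholesterol exporter, at 282, 226, 98.7 and 88.2 CPM, a log2 ratio of -1.42 (-1.70 to -1.15). Without the 3 limits Nos1ap, Frmd4b, Herpud1 and Abca1 were at 0.82, 0.06, 0.75 and -0.95, short of 2-fold. In the combination they included Rgs1, a regulator of chemokine receptor signalling, at 108, 64.3, 59.9 and 17.3 CPM, a log2 ratio of -2.11 (-2.68 to -1.52) and Grina at 338, 358, 134 and 93.2 CPM, a log2 ratio of -1.76 (-2.11 to -1.41). Rgs1 was detected in 17.0%, 19.8%, 13.2% and 10.4% of monocytes. Among monocytes with all 4 marker genes its ratio in the combination was short of 2-fold.

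The combination was also set against each single agonist. Against the STING agonist 41 of 3891 genes were past 2-fold higher (1.05%) and 113 lower (2.9%), and against the LTbR agonist 8 of 5765 were higher (0.139%) and 27 lower (0.468%). The comparisons share the combination library, so that their counts are not independent. Relative to the LTbR agonist the combination was higher in Ly6i and in Ace, at 0.95 (0.61 to 1.30), and in Klf2, at 1.10 (0.91 to 1.30). It was lower in Arg1 and in Cxcl2, at -1.67 (-2.07 to -1.27). Relative to the STING agonist the combination was higher in Ace, at 1.84 (1.32 to 2.38), and lower in Ccl2, at -1.04 (-1.34 to -0.74).

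Monocytes were set beside 3 other classes of cells to place them, with no test, because the rule itself separated the classes. Genes with at least 200 UMIs over the 4 libraries in either class were compared. C1q macrophages, with Lyz2, at least 5 C1q UMIs and fewer than 3 of the 4 marker genes, numbered 1082, 564, 757 and 593. In all 4 libraries 139 of 8345 genes were past 2-fold higher in monocytes (1.67%) and 186 lower (2.23%). S100a4, a calcium-binding protein of motile cells, was at 1341 to 1781 CPM in monocytes and 177 to 465 CPM in C1q macrophages. Lower in monocytes were Mertk, a receptor for dying cells, with 3.30 to 9.98 CPM against 92.7 to 136 CPM, the macrophage elastase Mmp12, with 0 to 12.6 CPM against 318 to 805 CPM, and H2-Ab1, with 650 to 1183 CPM against 5790 to 7712 CPM. Cxcl9 Cxcl10 monocytes, which met the rule except for at least 5 UMIs of the chemokines and no limit on Nos2 and Inhba, numbered 242, 128, 207 and 145, with 14 of 4758 genes past 2-fold higher in monocytes in all 4 libraries (0.294%) and 56 lower (1.18%). Cx3cr1 was at 83.7, 77.5, 140 and 186 CPM in monocytes and 15.9, 24.1, 34.0 and 57.0 CPM in that class. Rsad2, an antiviral enzyme, was at 59.4 to 110 CPM in monocytes against 689 to 1104 CPM, and Isg15 at 420 to 839 CPM against 1977 to 2401 CPM. Neutrophils, with at least 2 UMIs of Cxcr2 and Retnlg together, numbered 114, 189, 249 and 36. Here 321 of 4623 genes were past 2-fold higher in monocytes (6.94%) and 220 lower (4.76%). S100a8 and S100a9 were at 20412 to 36052 CPM in neutrophils and at most 54.7 CPM in monocytes. C1q monocytes, which met the rule except for at least 5 C1q UMIs and no limit on Nos2 and Inhba, numbered 85, 28, 47 and 6, or 1.25% (1.00 to 1.55), 0.747% (0.497 to 1.08), 0.658% (0.484 to 0.874) and 0.113% (0.0413 to 0.245) of filtered cells. Their ratio to untreated was 0.0898 (0.0267 to 0.244) in the combination.

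Variation among single monocytes was measured after thinning each cell to 1000 UMIs, with 0 cells too shallow. Over 1226 genes the median ratio of variance to mean was 1.07, near the value that random sampling alone gives. Thinning itself draws the ratio towards that value, most for genes with few UMIs, and genes with a thinned mean down to 0.1 were ranked. The median therefore does not show that most genes varied little among monocytes. The 12 genes with the largest ratio were Cdk8, Cmss1, AY036118, Cd74, Fth1, Il31ra, H2-Aa, Lyz2, Lars2, H2-Ab1, Thbs1 and H2-Eb1. Of these, Lyz2 is a gene of the rule. For Cdk8, Cmss1 and AY036118 the ratio was 20.3, 16.3 and 12.6. MHC class II genes made up 4 of the 12, Cd74 with 14.8, 10.9, 11.4 and 11.4 and H2-Aa with 6.06, 4.21, 5.18 and 6.36 in the 4 libraries. In the sum over the MHC class II list a median monocyte held 4, 3.5, 4 and 4 of 1000 UMIs, while the 90th percentile was at 27.6, 20, 31 and 24.6 and the highest cell at 74, 55, 75 and 64. The tenth of monocytes with most MHC class II held 49.4%, 47.5%, 45.5% and 49.1% of these UMIs, so that in each library a minority of monocytes carried much of it. At least 20 UMIs were found in 14.5%, 10.4%, 15.4% and 11.1% of monocytes, 34, 10, 48 and 15 cells. The cells form a range and the value of 20 divides it without a gap having been sought.

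Differences between libraries were also seen per cell. The non-classical list held on average 1.25, 1.23, 1.43 and 2.15 of 1000 UMIs, and 37.4, 34.4, 38.3 and 22.2% of monocytes had none. The glycolysis and hypoxia list had a median of 4, 5, 3 and 3 and a 90th percentile of 15, 17, 11 and 8, so that the untreated and STING agonist libraries held a tail of high cells that the others held less of. The type I interferon-stimulated list had a median of 11, 11, 9 and 13, lowest with the LTbR agonist and highest in the combination. Its mean was 13.1, 12.5, 10.3 and 13.6. Over the genes of that list, by contrast, the combination had a median log2 ratio of -0.08, with 13 of 36 above the untreated level. The measures thus differed in direction for the combination. The monocyte identity list had a median of 20, 20.5, 18 and 18. Across cells of a library, sums of the pattern and Fc receptor list and of the glycolysis and hypoxia list, which share no gene, had Spearman correlations of 0.52, 0.65, 0.37 and 0.18 over 235, 96, 311 and 135 cells. The coagulation and matrix list and the glycolysis and hypoxia list had 0.42, 0.36, 0.29 and 0.32. Correlations were computed for every pair of the 23 lists. Only these pairs are given, so whether their values are unusual among the pairs is not shown. These cells share their library and 1 fixed number of UMIs, and the correlations are descriptions of 4 libraries.

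**Figure D4:**
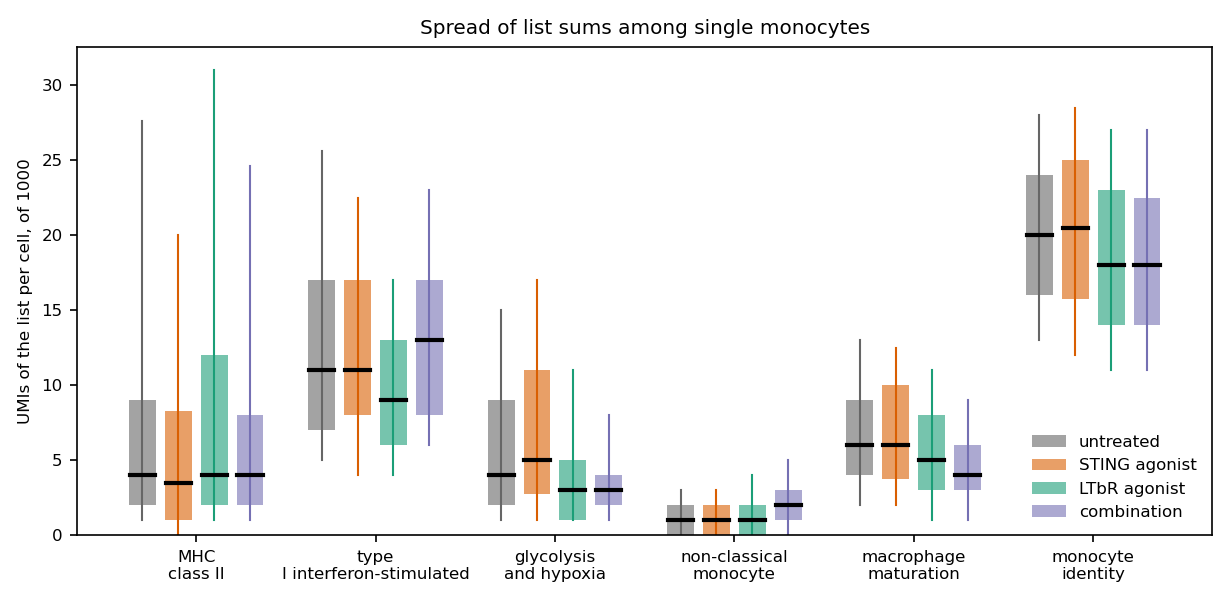
Boxes span the 25th to 75th percentile over single monocytes of the UMIs of a list per 1000 UMIs of a cell, black lines mark medians and thin lines span the 10th to 90th percentile, for the 4 libraries. MHC class II had a 90th percentile of 27.6 against a median of 4 in untreated monocytes, and the non-classical list was highest in the combination.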

How the data were processed

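The authors deposited 1 table of raw UMI counts per gene and barcode with the 4 libraries told apart by barcode suffix. Per the labels and the study's methods it was made with Cell Ranger 7.1.0 against mm10, and cells were kept at 300 to 5000 genes and at most 6% mitochondrial UMIs, a filter applied here too. Whether doublets were removed is not given in the sources used here, no doublet caller was run, and which of the independent single-cell runs in the methods gave these libraries is not given in the sources used here. The members and gene lists were chosen with earlier results of these data known. UMIs of monocytes were summed per library (Python 3.11.15, numpy 2.4.6, scipy 1.17.1, pandas 2.3.3). Shares carry exact Clopper-Pearson and CPM exact Poisson 95% intervals, and bounds of ratios set opposite ends against each other, which makes them wider than 95%. With 1 library per group no test or p-value was possible. Genes were named as the 8 highest and 8 lowest ratios per comparison with untreated (at least 100 UMIs over both libraries, top cell at most 25% of the higher library, no gene of the rule, V(D)J segment, mitochondrial or unnamed model), as list members past 2-fold or otherwise the 2 largest, and as the 12 most variable genes. The scripts were tested on simulated counts with known folds. Gene positions are from GENCODE M21 (GRCm38). Other pseudocounts, count minimums, cell weights, centring, marker numbers, limits, depths and left-out cells were tried. Some genes are not reported here.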

Additional observations from a re-analysis of the deposited data

How the results depend on the processing

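Each group is 1 library, so counting intervals do not cover differences between mice or preparations, and the agonist, the pool of tumours and the library cannot be told apart. Intervals of levels and of their ratios do not cover the spread between cells either. No paired analysis was possible because the groups have no replicates and no test was run. Depth limits genes under 50 UMIs per library, mostly with the STING agonist.

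The ratio of monocyte shares for the LTbR agonist to untreated was 0.885 without the 3 limits on Cxcl9 and Cxcl10, on Nos2 and Inhba and on C1q. With all 4 marker genes required, the combination had ratios of 0.495 to untreated, 0.557 to the STING agonist and 0.417 to the LTbR agonist, and with cells thinned to 1000 UMIs its ratio to untreated reversed to 1.09. Counts of genes past 2-fold that moved by over 1.5 times are given for 5 comparisons, each as higher and lower. For the STING agonist against untreated the 7 higher genes became 12 at a pseudocount of 1 CPM, 2 at 50 CPM, 4 with 2 marker genes sufficing, 3 without each gene's top cell, 14 at a minimum of 20 UMIs, 2 at 200 UMIs and 3 without the 3 limits, and the 9 lower genes became 34 and 1 at these pseudocounts, 21 with all 4 marker genes, and 15 and 2 at these minimums. For the LTbR agonist the 12 higher genes became 47 and 1 at the pseudocounts and 4 at 200 UMIs, and the 31 lower became 66 and 10, 48 with all 4 marker genes, 20 at 200 UMIs and 15 without the 3 limits. For the combination against untreated the 42 higher genes became 68 and 7, 22 with all 4 marker genes and 14 at 200 UMIs, and the 116 lower became 32 at 50 CPM, 65 at 200 UMIs and 64 without the 3 limits. Against the STING agonist the 41 higher genes became 81 and 5, 22 with all 4 marker genes, 62 without monocytes holding a UMI of another cell type, and 71 and 9 at the minimums, and the 113 lower became 43 at 50 CPM, 41 at 200 UMIs and 62 without the 3 limits. Against the LTbR agonist the 8 higher genes became 16 and 1, 4 with 2 marker genes sufficing, 17 with all 4, 4 without top cells, 4 without monocytes holding a UMI of another cell type, and 13 and 3 at the minimums, and the 27 lower became 58 and 4, 51 with all 4 marker genes and 10 at 200 UMIs. Medians that moved were those of the dendritic cell list, to -1.11 with the STING agonist with all 4 marker genes and to -0.083 in the combination without the 3 limits, and of the alternative activation list, to -0.081 in the combination with all 4 marker genes. Timp1 with the LTbR agonist reversed to 0.063 without the 3 limits. For all of these the cause was not tested. The list medians under the other alternatives, 687 values, stayed within 1.5-fold of those reported. Of 40 ratios past 2-fold among the genes named by size, 40 stayed past it at a pseudocount of 1 CPM, 19 at 50 CPM, 27 with 2 marker genes sufficing, 28 with all 4, 37 with the median of all genes set to 0, 36 without top cells, 39 without monocytes holding a UMI of another type and 20 without the 3 limits. Leaving out the 3 limits together was, for expression, chosen after seeing the data.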
